A study of Mus musculus with 2 samples.

Results

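Interferon-stimulated and interferon regulatory genes were followed in liver RNA of mice given squalene, a hydrocarbon intermediate of cholesterol synthesis. The set was a fixed list of 43 gene symbols, covering the interferon receptors, the transcription factors that carry their signal, the antiviral effectors of type I interferon, the GTPases of interferon gamma and 2 chemokines. A gene counted as measured when at least 1 probe set on the array was annotated with its symbol alone. This held for 39 of the 43 genes, among 12393 genes measured in that way on the whole array, and each gene was read on its brightest probe set, by mean log2 signal over both arrays. Isg15, Oas1g, Ifi44 and Xaf1 were not analysed here.

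The squalene pool was liver RNA from male apolipoprotein E-deficient mice, C57BL/6J/ OLA129 in background, that ate chow and drank a glycerol solution that delivered squalene, at a dose of 1 g for each kg of body weight daily, over 10 weeks. The control pool came from male mice of the same deletion, background and chow that drank 1% glycerol alone for 10 weeks, and the mice of both pools are listed as 2 months old. Loss of apolipoprotein E slows the removal of remnant lipoproteins from blood and leads to atherosclerosis in mice, and both pools share that deletion. Each pool went on 1 array, so no replicates exist, no test between the pools is possible, and how many mice made up a pool is not stated in the labels.

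Type I interferons are secreted when cells sense, for example, viral or bacterial nucleic acid. Type I interferons bind the receptor chains IFNAR1 and IFNAR2, and a complex that holds STAT2 and IRF9 then binds the interferon-stimulated response element (ISRE) in promoters of antiviral genes. Interferon gamma, from T cells and natural killer cells, binds IFNGR1 and IFNGR2 and acts on promoters through the gamma-activated site (GAS), and through IRF1 on ISRE-like elements. In liver the response is carried by hepatocytes, Kupffer cells, endothelium and lymphocytes alike. In RNA of whole liver, fewer cells of a type and less RNA per cell cannot be told apart.

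Promoter sequences show which of the measured genes carry these elements. RefSeq promoters of build GRCm38.p6, 250 bases before to 50 after each gene's start, were found for 34 of the 39 measured genes. The letters GAAANNGAAA, searched on both strands as an ISRE core, were present in promoters of 16 of the 34 (47.1%), against 3.84% of the 9887 array genes with a promoter in the table. The palindromic letters TTCNNNGAA, searched as a GAS core, were present in 14 of the 34 (41.2%), against 8.45% of array genes. By role, the ISRE letters were in 9 of 16 type I effectors, 4 of 4 interferon gamma GTPases, 2 of 8 regulators, 1 of 2 chemokine genes and 0 of 4 receptors. The 2 motifs overlapped in 2 of the 43 promoters read, a number above 34 because 7 genes had more than 1 promoter. These are letter matches and were not measured as binding sites.

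The stretches that follow are 60 bases long, 5′ to 3′ on the gene's strand and wholly before its start, with the motif in capitals. The first 4 belong to type I effectors with lower signals in the squalene pool, the next 3 to interferon gamma GTPases with like signals in both pools, and the last 2 to the regulators Irf2 and Irf1 with higher signals in the squalene pool. They are a selection. The effector Ifit1, with 2 ISRE matches before its start, is not shown, and read 31.6 in the squalene pool and 23.7 in the control pool. Ifit1 and Ifit3 both fall below the signal limit given further on. Capitals mark the ISRE letters, which read as TTTCNNTTTC where the match is on the opposite strand, and for Irf1 the GAS letters.
Bst2: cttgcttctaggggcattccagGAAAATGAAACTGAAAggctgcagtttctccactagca
Oas1a: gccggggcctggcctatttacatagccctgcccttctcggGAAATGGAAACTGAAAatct
Rsad2: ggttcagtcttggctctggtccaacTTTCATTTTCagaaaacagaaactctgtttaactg
Ifit3: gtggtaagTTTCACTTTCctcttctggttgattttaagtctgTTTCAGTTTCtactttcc
Igtp: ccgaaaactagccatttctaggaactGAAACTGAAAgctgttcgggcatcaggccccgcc
Irgm1: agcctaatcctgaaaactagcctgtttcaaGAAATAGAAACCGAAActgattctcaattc
Gbp2: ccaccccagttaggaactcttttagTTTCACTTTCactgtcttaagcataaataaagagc
Irf2: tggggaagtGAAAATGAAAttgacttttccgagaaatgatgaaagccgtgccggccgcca
Irf1: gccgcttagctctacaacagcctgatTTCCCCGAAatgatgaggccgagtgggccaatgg

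On GRCm38.p6 these stretches lie at chr8:71537565-71537624 on the minus strand for Bst2, chr5:120907526-120907585 minus for Oas1a and chr12:26456538-26456597 minus for Rsad2. That of Ifit3 lies at chr19:34583365-34583424 on the plus strand, that of Igtp at chr11:58199496-58199555 plus, that of Irgm1 at chr11:48871421-48871480 minus and that of Gbp2 at chr3:142620579-142620638 plus. Those of Irf2 and Irf1 lie at chr8:46739495-46739554 plus and chr11:53769898-53769957 plus. Bst2, Oas1a and Irgm1 each hold 2 overlapping ISRE matches, a run of 3 GAAA repeats. Among these stretches the match nearest to the start is that of Oas1a, which ends 5 bases before it.

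Several members also sit side by side in the genome. In the RefSeq order of coding genes, Oasl2 and Oasl1 are direct neighbours, as are Ifit2 and Ifit3, the pairs Ifitm2 with Ifitm1 and Ifitm1 with Ifitm3, and Ifnar1 with Ifngr2.

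Signals are MAS5 probe set intensities in arbitrary units. The array median was 41.4 in the squalene pool and 39.9 in the control pool. A gene was called clearly read when the geometric mean of its 2 signals was at or above 40.6, the mean of those medians on the log2 scale. That limit was passed by 28 of the 39 interferon genes and by 6781 of all genes. The other 11 were 8 type I effectors (Ifit1, Ifit2, Ifit3, Isg20, Oas2, Oasl2, Mx1 and Mx2), the regulator Irf8, the GTPase Gbp3 and the chemokine Cxcl10. Of these 11, 10 lay below the array median in both pools and Ifit3 in the squalene pool. Among clearly read interferon genes, Irf5 and Gbp2 lay below it in the squalene pool and Eif2ak2 in the control pool.

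In place of replicates, a spread was taken from genes with more than 1 probe set. It comes from the same 2 arrays and leaves out variation between mice, pools and hybridizations. The SD of the log2 ratio among probe sets for 1 gene was 0.17 for genes with a mean signal of 289.3 or more, 0.31 from 90.0 to 289.3, 0.56 from 30.4 to 89.9, 1.38 from 9.74 to 30.3 and 2.03 below that. Each ratio is set against the SD of its signal range. All 18 hybridization spike-ins read lower on the squalene array, with log2 ratios of -0.42 to -0.10 and a median of -0.26. Scaling to them would raise every ratio by 0.26. As a sign of RNA quality, the 3′ over 5′ ratio for actin was 2.48 in the squalene pool and 2.80 in the control pool, and for Gapdh it was 0.678 and 0.690.

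Most clearly read interferon genes lay within a log2 ratio of 0.5 on either side of 0, as did most clearly read genes. Beyond a log2 ratio of 0.5, 6 of the 28 clearly read genes were lower in the squalene pool, against 7.98% of all clearly read genes, and 2 of 28 were higher, against 8.97%. The 6 were Irf5 (-0.998), Bst2 (-0.93), Oas1a (-0.81), Cxcl9 (-0.72), Rsad2 (-0.53) and Ifngr1 (-0.52), and the 2 were Irf2 (0.87) and Irf1 (0.52). The other 20 of the 28 lay between, against 5632 of all 6781 clearly read genes. The median was -0.09 over the 28, against 0.01 over all clearly read genes, and 17 of the 28 lay below 0, against 49.1% of all. None of the 28 passed the log2 limit of 1.5 that the submitters used as their screen, which 0.192% of clearly read genes passed on the lower side and 0.162% on the higher. After scaling to the spike-ins the median was 0.17, against 0.27 over all clearly read genes. Then 3 of the 28 were lower, against 2.86% of all clearly read genes, and 6 were higher, against 24.0%.

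**Figure D1:**
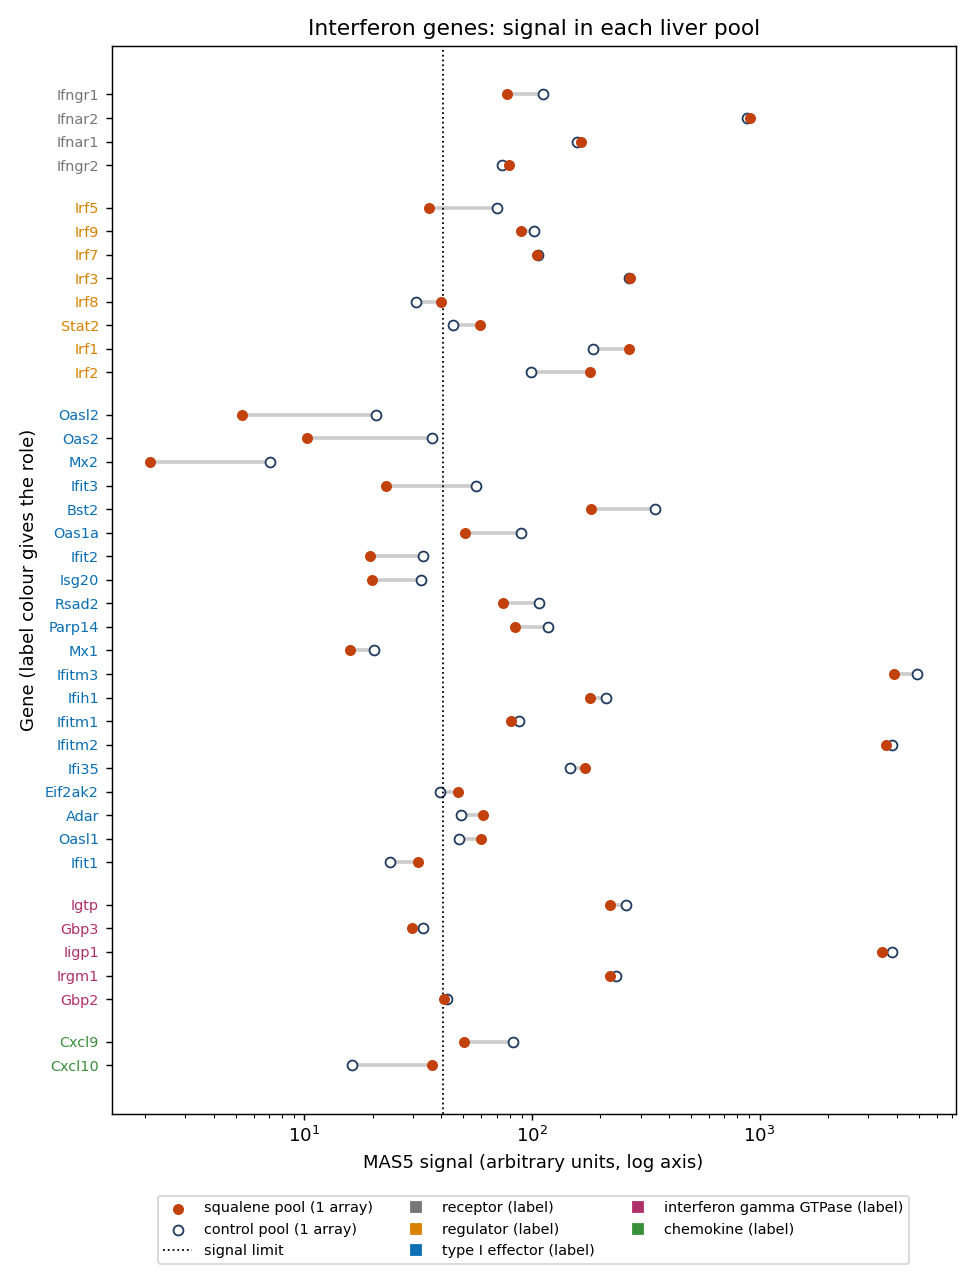
MAS5 signal in arbitrary units (log axis) of the 39 measured interferon genes in the squalene pool (filled) and the control pool (open), 1 array each, grouped by role; the dotted line is the signal limit of 40.6. The pairs of points nearly coincide for Irf3, Irf7, Ifnar1, Ifnar2 and the GTPases, while Bst2, at 182.1 in the squalene pool and 347.7 in the control pool, is widely spaced at a clear signal and the widest gaps of all, such as Oasl2 and Mx2, lie left of the limit.

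Of the 4 receptors, 3 were nearly level and Ifngr1 was lower in the squalene pool. Ifnar1, a chain of the type I receptor, had a signal of 165.1 in the squalene pool and 157.1 in the control pool, a log2 ratio of 0.07. Ifnar2, its partner chain, had 907.4 in the squalene pool and 876.7 in the control pool, a ratio of 0.05 on its brighter probe set. A second, dim probe set of Ifnar2 gave 23.3 in the squalene pool and 58.2 in the control pool (-1.32). The 2 probe sets thus disagree in direction, and the brighter lies in the range where probe sets differ least.

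Ifngr1, the chain that binds interferon gamma, had 77.9 in the squalene pool and 111.6 in the control pool. Its log2 ratio of -0.52 was 1.66 times the SD between probe sets at that signal, and it lay inside the band with a pseudocount of 20 (-0.43) and with scaling to the spike-ins (-0.26). Ifngr2, the signalling chain, had 79.5 in the squalene pool and 73.8 in the control pool (0.11), and a dim second probe set stood at 1.37. The median of the 4 receptors was 0.06.

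The regulators went both ways. Irf2, a factor that competes with IRF1 for the same elements, had the highest ratio among clearly read members. Its signal was 180.3 in the squalene pool and 98.7 in the control pool, 1.83-fold higher with squalene, and the log2 ratio of 0.87 was 2.79 times the SD. In that signal range 1.78% of all genes had a ratio as high or higher. Irf2 was read on 1 probe set whose suffix (_s_at) marks probes shared between transcripts.

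Irf1, an activator induced by interferon gamma, had 266.0 in the squalene pool and 185.6 in the control pool, 1.43-fold higher with squalene. Its log2 ratio of 0.52 was 1.66 times the SD, and 8.11% of genes in its range were as high. Irf1 and Irf2 were the only members of the set above 0.5 among those clearly read, and each had a single probe set. Irf1 lay inside the band after quantile normalization (0.46), after loess (0.47) and with a pseudocount of 20 (0.48).

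Irf5, a factor that acts downstream of Toll-like receptors and is abundant in macrophages, pointed the other way. Its brighter probe set had 35.3 in the squalene pool and 70.5 in the control pool, a ratio of -0.998 at 1.78 SDs. The dimmer one had 26.9 in the squalene pool and 20.8 in the control pool, a ratio of 0.37. Direction for Irf5 thus depends on the probe set.

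The factors that transduce the type I signal differed little. Stat2 had 59.2 in the squalene pool and 44.8 in the control pool (0.40, or 0.06 on its other probe set). Irf9, its DNA-binding partner, had 89.2 in the squalene pool and 102.1 in the control pool (-0.19). Both ratios were smaller than the SD between probe sets at their signals.

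Irf7, the main amplifier of type I interferon production and itself an interferon-induced gene, had 105.6 in the squalene pool and 106.0 in the control pool. Irf3, which is present before any stimulus and starts interferon transcription, had 268.9 in the squalene pool and 267.1 in the control pool. Their ratios were -0.01 and 0.01, the nearest to 0 in the set. Of the other 3 probe sets of Irf3, 2 stood at 0.03 and -0.22, and the third, read at 12.1 in the squalene pool and 1.8 in the control pool, at 2.75. Irf8, a factor of myeloid and dendritic cells, was dim in both pools, at 39.7 with squalene and 30.8 in the control. The median over the 7 clearly read regulators was 0.01.

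Among type I effectors the ratios spread from lower to level. Of 12 clearly read effectors, 3 were lower beyond 0.5, 0 were higher and 9 lay between, against a background of 7.98% lower and 8.97% higher. Their median was -0.18, and 8 of the 12 lay below 0, against 49.1% of all clearly read genes. After scaling to the spike-ins their median was 0.083, against 0.27 over all clearly read genes.

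Bst2, which encodes tetherin, a membrane protein that holds budding virus at the cell surface, stood farthest from 0 relative to the SD between probe sets. Its signal was 182.1 in the squalene pool and 347.7 in the control pool, 1.91-fold lower with squalene. The log2 ratio of -0.93 was 2.99 times the SD, and 1.01% of genes in its signal range were as low. It had 1 probe set, and 39 interferon genes were looked at in all.

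Oas1a, a synthase of the oligoadenylates that activate the nuclease RNase L, had 50.9 in the squalene pool and 89.3 in the control pool. It was 1.75-fold lower with squalene, a ratio of -0.81 at 1.45 SDs. Oas1a belongs to a cluster of closely related genes whose transcripts a probe set may share. Oasl1, a relative that restrains Irf7 translation in mice, was on the other side of 0, with 59.9 in the squalene pool and 47.7 in the control pool (0.33).

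Rsad2, which encodes viperin, an antiviral enzyme of the endoplasmic reticulum and lipid droplets, was the best supported by probe sets. Its brightest had 74.5 in the squalene pool and 107.3 in the control pool, a log2 ratio of -0.53. The others had 24.9 and 24.0 in the squalene pool, against 38.3 and 31.1 in the control pool, with ratios of -0.62 and -0.37. All 3 lay below 0, and the brightest's ratio was 0.94 times the SD of its range. It lay inside the band with a pseudocount of 20 (-0.43) and with scaling to the spike-ins (-0.27).

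The interferon-induced transmembrane genes block entry of enveloped viruses, and Ifitm2 and Ifitm3 lie in the signal range where probe sets differ least. Ifitm3 had 3899.0 in the squalene pool and 4924.8 in the control pool, a log2 ratio of -0.34 at 1.99 SDs. Ifitm2 had 3581.7 in the squalene pool and 3813.8 in the control pool (-0.09), and Ifitm1 had 81.1 in the squalene pool and 88.0 in the control pool (-0.12). All 3 lay within the band and below 0, against 49.1% of all clearly read genes below 0. Only Ifitm3 stayed below 0 after scaling to the spike-ins (-0.08).

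The sensors of double-stranded RNA lay within the band. Ifih1, which encodes MDA5, had 179.6 in the squalene pool and 211.2 in the control pool (-0.23). Eif2ak2, which encodes the kinase PKR, had 47.3 in the squalene pool and 39.4 in the control pool (0.26), and its other probe set pointed the opposite way (-0.31). Adar, an RNA-editing enzyme that limits sensing of the cell's own RNA, had 61.1 in the squalene pool and 48.7 in the control pool (0.33). No ratio of these 3 reached 1 SD.

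Parp14, a mono-ADP-ribosyltransferase, lay just inside the band, with 84.0 in the squalene pool and 117.1 in the control pool (-0.48, at 1.54 SDs). Ifi35, an interferon-induced leucine zipper protein, had 170.7 in the squalene pool and 147.6 in the control pool (0.21).

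The 8 dim type I effectors mostly read lower in the squalene pool. Beyond 0.5, 6 of the 8 were lower and 0 higher, against 34.1% and 36.7% of all genes below the signal limit. The largest ratios of the whole set were among them. Oasl2 had 5.3 in the squalene pool and 20.7 in the control pool (-1.97), Oas2 had 10.3 in the squalene pool and 36.5 in the control pool (-1.83), and Mx2, a dynamin-like antiviral GTPase, had 2.1 in the squalene pool and 7.1 in the control pool (-1.76). These 3 passed the submitters' limit of 1.5, as did 15.9% of all dim genes on the lower side and 17.2% on the higher, and each ratio was under 1.5 times the SD of its range.

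Ifit3, a protein of the family that binds viral RNA and blocks its translation, had 22.9 in the squalene pool and 57.0 in the control pool, a log2 ratio of -1.32 at 2.35 SDs. In its range 1.61% of genes were as low. With both signals floored at the array median its ratio was -0.46. Ifit2 (-0.76), which encodes another protein of that family, and Isg20 (-0.72), which encodes an exonuclease of single-stranded RNA, were below the array median in both pools, as were Mx1 (-0.35) and Ifit1 (0.42). Floored signals give these 4, and Oas2, Oasl2 and Mx2, no difference between the pools beyond that of the array medians.

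**Figure D2:**
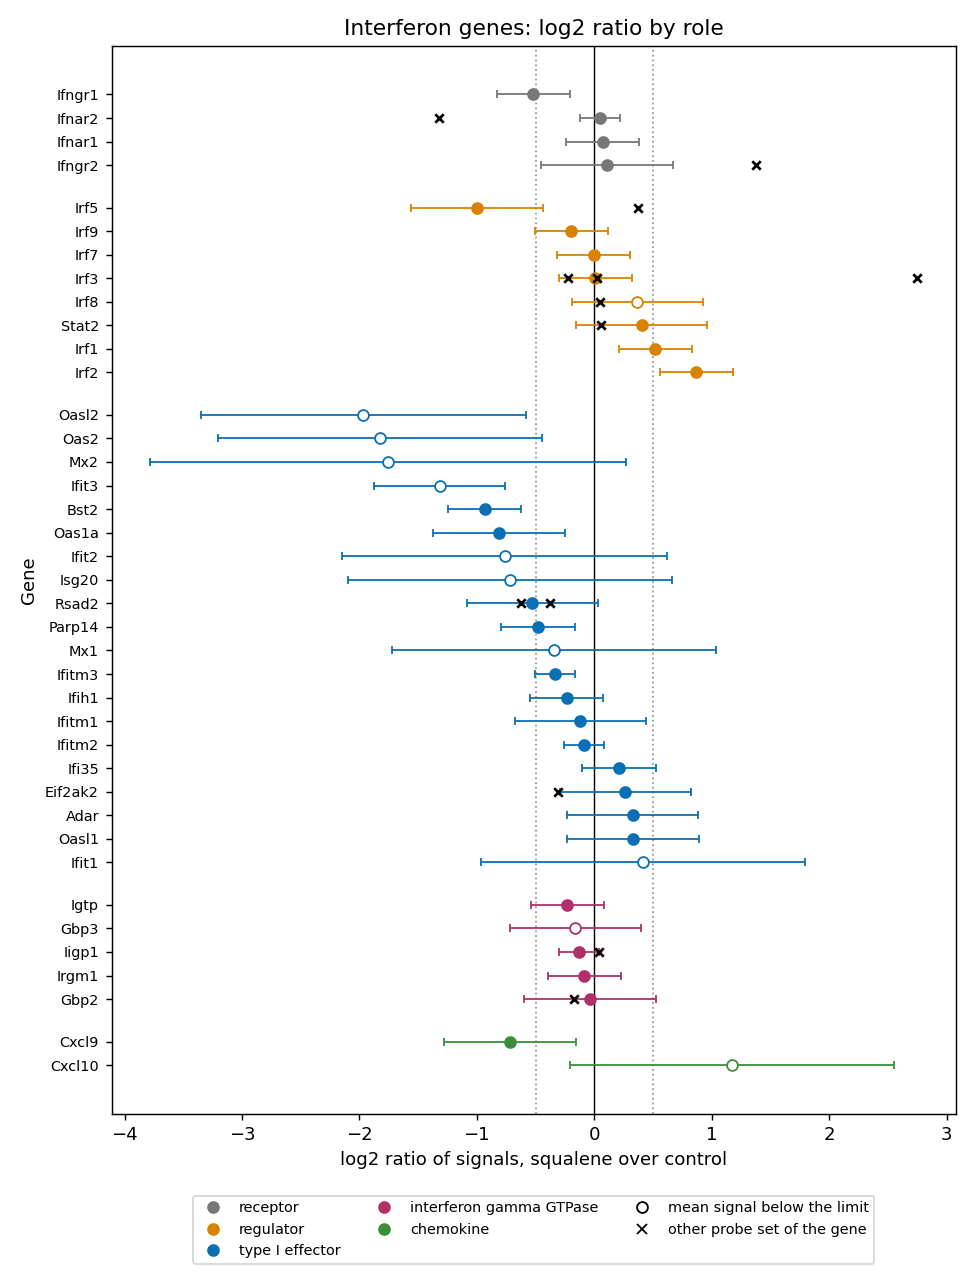
Log2 ratio of signals, squalene over control, of the 39 interferon genes by role; bars give 1 SD between probe sets of a gene in the same signal range, open circles have a mean signal below the limit, crosses are other probe sets of the gene, and dotted lines mark 0.5 on either side of 0. Bars of Bst2, Oas1a, Ifit3, Irf1, Irf2, Irf5, Ifngr1, Ifitm3, Parp14, Oas2, Oasl2 and Cxcl9 do not reach 0, and those of the 5 interferon gamma GTPases all do.

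The interferon gamma GTPases were close to level in both pools. These proteins assemble on vacuoles of intracellular pathogens. Iigp1, an immunity-related GTPase, had 3467.8 in the squalene pool and 3802.2 in the control pool, a log2 ratio of -0.13, and its second probe set gave 0.04. Igtp, also called Irgm3, had 221.1 in the squalene pool and 259.0 in the control pool (-0.23). Irgm1, a regulator of that family and of autophagy, had 220.5 in the squalene pool and 234.0 in the control pool (-0.09).

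The guanylate-binding proteins were near the signal limit. Gbp2 had 41.1 in the squalene pool and 42.2 in the control pool (-0.04), with -0.18 on its other probe set, and Gbp3 had 29.8 in the squalene pool and 33.3 in the control pool (-0.16). None of the 5 GTPases lay beyond 0.5, against 7.98% lower and 8.97% higher over all clearly read genes. For dim genes, such as Gbp3, those shares were 34.1% and 36.7%. All 5 lay below 0, by less than 1 SD each, against 49.1% of all clearly read genes. Scaling to the spike-ins put all 5 above 0, and the median of all clearly read genes at 0.27.

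Type I effectors and interferon gamma GTPases thus had similar medians and unlike ranges. The median was -0.18 over 12 clearly read effectors and -0.11 over 4 GTPases, a difference of -0.07. The effectors ran from -0.93 to 0.33, and the GTPases from -0.23 to -0.04. These ranges cover 12 genes and 4, and a range widens with the number of genes. Signal differed too. The effectors Oas1a, Oasl1, Rsad2, Ifitm1, Eif2ak2 and Adar lay in the signal range with an SD of 0.56, and of the 4 GTPases only Gbp2 did. Over all measured members, dim ones included, the medians were -0.41 over 20 effectors and -0.13 over 5 GTPases, a difference of -0.28. Scaling to the spike-ins turns the clearly read medians to 0.083 and 0.15, against 0.27 over all clearly read genes, and leaves their difference as it is. With 1 array per pool the difference cannot be tested.

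The chemokines, both ligands of the T cell receptor CXCR3, pointed in opposite directions. Cxcl9, induced chiefly by interferon gamma, had 50.2 in the squalene pool and 82.6 in the control pool, a log2 ratio of -0.72 at 1.28 SDs, or -0.46 with scaling to the spike-ins. Cxcl10, induced by both kinds of interferon, was dim, with 36.5 in the squalene pool and 16.2 in the control pool (1.17, at 0.85 SDs). Neither chemokine had a second probe set.

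Clearly read members with and without an ISRE core overlapped in their ratios. Among the 12 with the letters in a promoter, the median log2 ratio was -0.16, with a range of -0.93 to 0.87, 3 lower and 1 higher, against 7.98% lower and 8.97% higher over all clearly read genes. Among the 14 without them it was 0.03, with a range of -0.998 to 0.52, 3 lower and 1 higher. Bst2 and Irgm1, whose stretches both hold a run of 3 GAAA repeats, stood at -0.93 and -0.09. For the GAS core the medians were 0.07 over 11 members with it and -0.09 over 15 without.

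**Figure D3:**
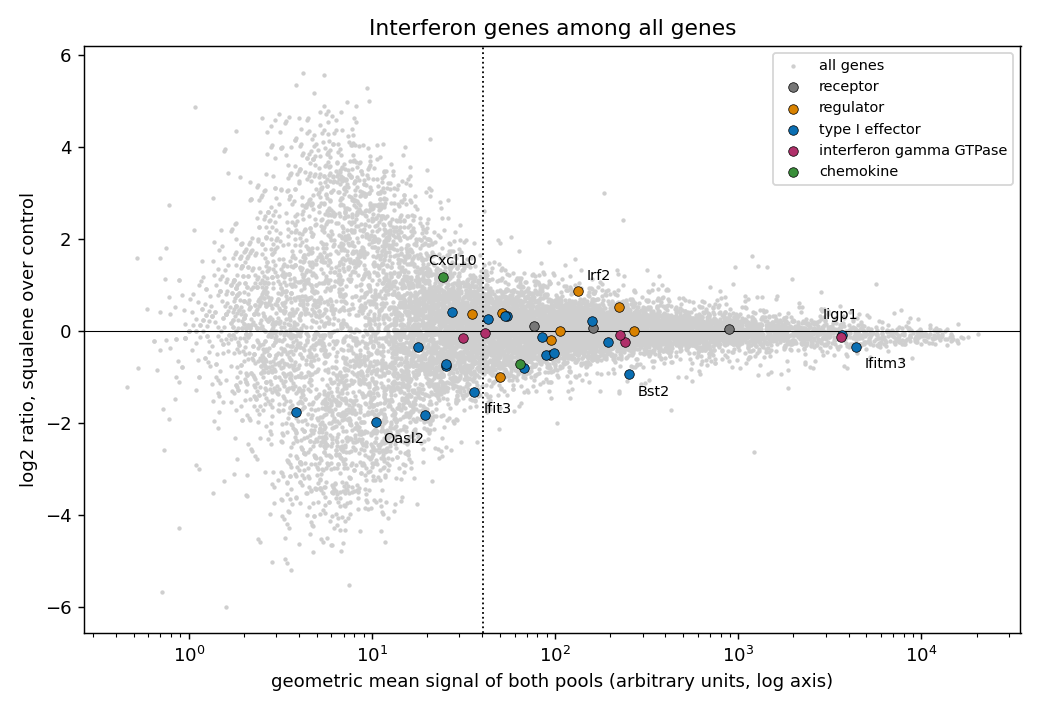
Log2 ratio, squalene over control, against the geometric mean signal of both pools (arbitrary units, log axis) for all 12393 genes (grey) and the 39 interferon genes (coloured by role); the dotted line is the signal limit. Spread widens to the left, where Oasl2 (-1.97) lies inside the cloud, while Bst2 (-0.93) and Irf2 (0.87) lie near its edges at clear signals.

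Other genes of the pathway were read as lists. The genes of the interferons themselves read low in both pools: of 10 with a probe set, 9 were below the array median in both, including Ifnb1 (28.2 in the squalene pool, 34.2 in the control pool) and Ifng (1.7 and 0.9). The clearly read ligand gene was Ifna2, at -0.27. Of 17 clearly read JAK-STAT transducers and brakes, 1 was lower, 0 were higher and 16 lay between, against 7.98% lower and 8.97% higher over all clearly read genes, a share near the background. The median was 0.10. The lower gene was Socs3, a feedback inhibitor of cytokine receptors, with 88.5 in the squalene pool and 161.3 in the control pool (-0.87), and its other probe sets stood at -1.25 and -1.47. Jak2 (-0.45), Pias3 (0.42, and -0.35 on its dimmer probe set) and Tyk2 (0.40) followed.

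Of 7 clearly read nucleic acid sensors and adaptors, 0 were lower and 2 higher, against 7.98% lower and 8.97% higher over all clearly read genes, with a median of 0.16. Mavs, the adaptor through which MDA5 signals, had 541.3 in the squalene pool and 268.3 in the control pool (1.01), and its other probe set gave 0.81. Irak1, a kinase of Toll-like receptor signalling, had 362.0 in the squalene pool and 156.9 in the control pool (1.21), with 0.04 to 0.46 on its 3 other probe sets. Tlr9 (0.37) and Trim25 (-0.25, and 0.36 on its dimmest probe set) lay between.

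Antigen presentation genes, many of them induced by interferon gamma, had medians below 0. Of 10 clearly read genes of MHC class I and the immunoproteasome, 2 were lower, 0 higher and 8 between, against 7.98% lower and 8.97% higher over all clearly read genes. Their median was -0.33, and 9 lay below 0, against 49.1% of all clearly read genes. They were led by Tap1 (-0.77), whose 3 dimmer probe sets read above 0, and by Psmb8 (-0.65), followed by Psme1 (-0.45) and Psmb9 (-0.39). All 5 clearly read MHC class II genes were lower, against the same 7.98%, with a median of -1.07, among them H2-Eb1 (-1.35), H2-DMa (-1.09), Cd74 (-1.07) and H2-Ab1 (-0.93). H2-DMa lay below the array median in the squalene pool (32.2) and passed the signal limit through the control pool (68.6).

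**Figure D4:**
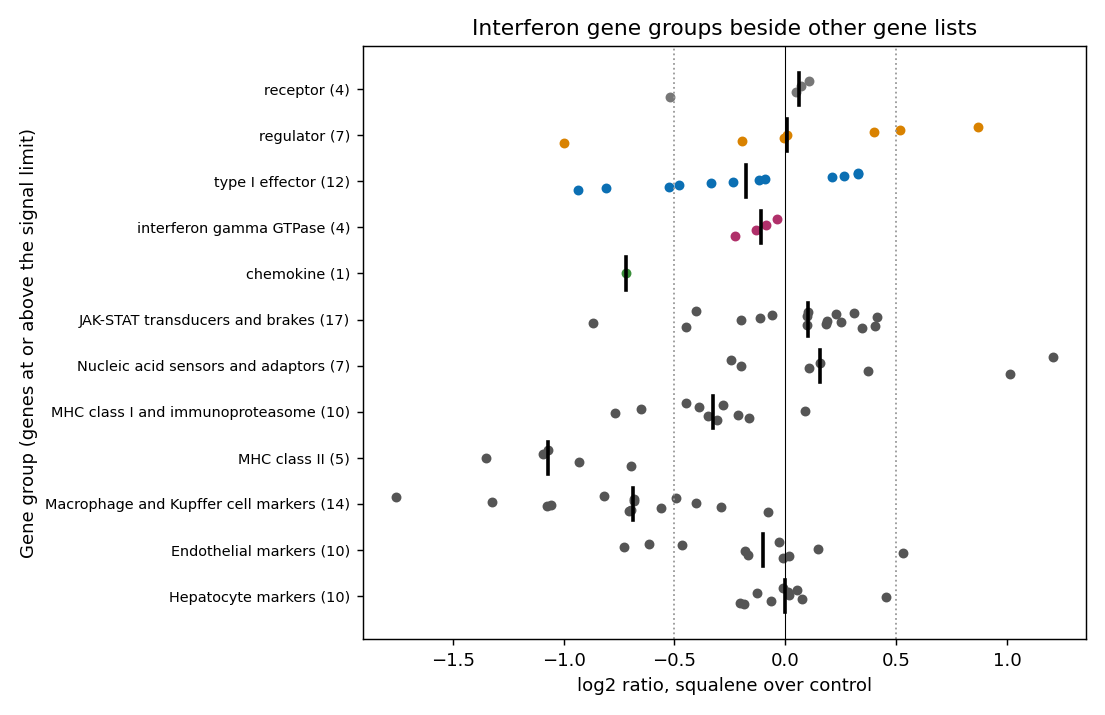
Log2 ratio, squalene over control, of genes at or above the signal limit (points, number in brackets) and their median (black bar) for interferon genes by role and for other lists; dotted lines mark 0.5 on either side of 0. Type I effectors (median -0.18) and GTPases (-0.11) lie near endothelial markers (-0.10), between MHC class I (-0.33) and hepatocyte markers (0.00). MHC class II (-1.07) and macrophage markers (-0.69) lie lower. Scaling to the spike-ins would raise every point alike and put the median of all clearly read genes at 0.27.

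Markers of liver cell types were read beside these results. Of 18 macrophage and Kupffer cell markers, 17 had a probe set, and of 14 clearly read ones 10 were lower beyond 0.5 and 0 higher, against 7.98% and 8.97% of clearly read genes. The summed signal of the 17 was 5021.9 in the squalene pool and 7861.9 in the control pool, and none was at 0. Cd14 (-1.76), Msr1 (-1.33), Lyz2 (-1.07) and Marco (-1.06) had the largest ratios. Of these, Cd14 and Marco lay below the array median in the squalene pool, at 23.1 and 38.6. Both passed the signal limit through the control pool, at 78.1 and 80.3. The median of the 14 was -0.69. These markers lay on the same side of 0 as Bst2, Irf5, Cxcl9 and the type I effector median, and their part in those results was not tested.

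Of 20 lymphocyte and natural killer cell markers, 17 had a probe set and 0 were clearly read, with a summed signal of 202.2 in the squalene pool and 296.1 in the control pool. Of 8 dendritic cell markers, 6 had a probe set and only Tcf4 (0.16) was clearly read, with summed signals of 172.8 in the squalene pool and 182.8 in the control pool. Of 12 endothelial markers, 10 were clearly read, with 2 lower and 1 higher, against 7.98% lower and 8.97% higher over all clearly read genes. Their median was -0.10, and the summed signal of all 12 was 2115.8 in the squalene pool and 2874.7 in the control pool. The largest ratios were those of Clec4g (-0.73, and 0.72 on a dim second probe set), Fcgr2b (-0.62), Stab1 (0.53) and Eng (-0.46). No marker of these lists was at 0 in either pool.

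Hepatocyte markers, which check the tissue label, were bright in both pools. All 10 with a probe set were clearly read, at 3564.5 or more in the squalene pool and 3891.8 or more in the control pool. Their median log2 ratio was 0.00, with Tat (0.45), Ttr (-0.21), Alb (-0.19) and Hnf4a (-0.13) the farthest from 0. The 3 other probe sets of Hnf4a read 0.32, 0.39 and 0.42.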

How the data were processed

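Liver RNA of 2 pools was hybridised to 1 Affymetrix mouse array each. The authors made the deposited intensity values with MAS5, per the submitters' processing notes, which give no version. Detection calls were not used here. Each sample's group was read off its title, as the growth text does not differ between them. The 2%-trimmed mean was 200.1 on either array. Of 22690 probe sets, 64 array controls were left out, and 20380 had a single symbol, 691 several and 1555 none in the platform annotation. By Entrez number 20351 matched the RefSeq table, with 0 symbols changed.

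The log2 ratio was taken with no pseudocount. Every measured member was named by rule, and up to 4 clearly read genes of each other list with the largest ratios; other genes named from those lists (Ifnb1, Ifng) were chosen after their values were seen. Members and lists were chosen with earlier results of these data known. No p-values were computed. The number of arrays limits the precision. The alternatives were other filters, floored signals, a pseudocount of 20, quantile normalization, loess, scaling to the spike-ins, other probe sets per gene, and bands of 1.0 and 1.5. The ratio and probe set choice were run on simulated data where all probe sets of a gene shared the same effect. Effects were placed only on genes above the signal limit, so the run does not cover dim genes or probe sets that disagree. Python 3.11.15, numpy 2.4.6, pandas 2.3.3, statsmodels 0.14.6 and matplotlib 3.10.9 were used.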

Additional observations from a re-analysis of the deposited data

How the results depend on the processing

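With 1 array per pool, a value counts as moved when it shifts by more than the spread between probe sets of a gene allows, or, for counts, by over 1.5 times. The median of the clearly read interferon genes (-0.09) was -0.17 over 20 genes with plain-suffix probe sets and turned to 0.17 with scaling to the spike-ins, which also put the type I effectors at 0.083 and the interferon gamma GTPases at 0.15. The effector median (-0.18) was -0.41 with no filter and -0.34 over the 3 effectors at or above the 75th percentile. The difference between effectors and GTPases ranged from -0.28 with no filter to -0.05 with a pseudocount of 20; a constant shift to the spike-ins cannot move it, and floored signals did not. Genes called lower (6 of 28) numbered 12 of 39 with no filter, against 2454 of all 12393 genes. With scaling to the spike-ins they numbered 3 of 28, against 2.86% of all clearly read genes. At or above the 75th percentile they numbered 1 of 9, with no share over all genes computed there. They numbered 0 with bands of 1.0 and 1.5, and 0.192% of all clearly read genes were lower beyond 1.5. Genes called higher (2 of 28) numbered 6 with scaling to the spike-ins, against 24.0% of all clearly read genes. They numbered 4 when all probe sets of a gene were averaged, and 1 of 9 at or above the 75th percentile. After quantile normalization and after loess they numbered 1, against 7.61% and 7.49% of all clearly read genes. With a pseudocount of 20 they numbered 1, and with bands of 1.0 and 1.5 they numbered 0. Beyond 1.5, 0.162% of all clearly read genes were higher. No share over all genes was computed for the averaged probe sets, the 75th percentile, the pseudocount or the band of 1.0. Over the 20 genes with plain-suffix probe sets they numbered 0, which says nothing on Irf1 and Irf2, as neither has such a probe set. Scaling to the spike-ins moved the median of all clearly read genes to 0.27. Of 302 ratios of single genes under the alternatives, 25 lay on the other side of 0 from the reported ratio, 10 of them with scaling to the spike-ins and 7 with floored signals. Of these 25, 6 concern genes with a reported ratio beyond 0.5. Irf5 read 0.37 on the probe set nearest 0, and Ifit2, Isg20, Oas2, Oasl2 and Mx2 read 0.051 with floored signals, which puts both signals at their array medians. Low signal over background limits the 11 dim members. No paired analysis was possible because each group has 1 array.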
